A study of Mus musculus with 24 samples.

Results

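Mitochondrial ribosomal proteins are the proteins of the ribosome that works inside mitochondria. Their genes were taken as all array features (transcript clusters) annotated to a single gene whose symbol starts with Mrpl or Mrps and a number. Where a gene had more than 1 such cluster, the one with the highest mean signal was used. The rule found 71 genes among the 22180 genes tested. Of these, 45 encode proteins of the large subunit, 25 encode proteins of the small subunit, and 1, Mrps36, carries the name but has also been assigned to the oxoglutarate dehydrogenase complex. Mrps30 and Mrps18a are named after the small subunit but sit in the large one and were counted there. For 28 large and 15 small subunit genes the protein has a counterpart in the bacterial ribosome. For 17 large and 10 small subunit genes the protein is specific to mitochondria. A further 7 genes, Mrpl30, Mrpl33, Mrpl41, Mrpl43, Mrpl44, Mrpl53 and Mrps6, were represented here by clusters annotated to several genes at once and were not members.

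The mitochondrial ribosome descends from a bacterial one. It translates the few messages of the mitochondrial genome, all of which encode core subunits of the respiratory chain and the ATP synthase. Its RNAs come from the mitochondrial genome, whereas all of its proteins are encoded in the nucleus, made in the cytosol and imported. In muscle, which depends on oxidative metabolism, these genes are commonly described as part of the program that sets mitochondrial content.

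The cells were primary muscle cells, isolated from quadriceps muscle of ICR mice. Pregnant dams in the undernutrition group received, from gestational day 12.5 until birth, 50% of the food that control dams ate. All dams fed freely afterwards, and all litters were brought to 8 pups. Cells from offspring of either kind of dam were differentiated in standard medium, a low-glucose medium with 5.5 mM glucose and 2% serum. Others were kept overnight in substrate-limited medium that held 1 mM glutamine, 0.5 mM carnitine, 1% serum and only 0.5 mM glucose, so the media differed in several components at once. RNA was measured on 24 arrays in 4 groups of 6: control standard, control limited, undernourished standard and undernourished limited. Each culture number in the labels, 6 per maternal diet, appears once in each medium. What a number marks (a mouse, a litter or a dish) is not in the labels, so p-values cover only the spread among these arrays, part of which may be technical.

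Signals were log2 values between 1.69 and 14.1, with array medians between 5.60 and 5.81. All 15 markers of differentiated myotubes were measured, and their mean per array lay between 11.1 and 11.9. The 8 markers of satellite cells and myoblasts averaged between 9.37 and 10.0. Markers of endothelial cells, leukocytes and adipocytes averaged between 4.48 and 5.39, below the median gene at 6.02. Fibroblast markers (8 of 8 measured) averaged 7.27 and 7.86 in the standard and limited arrays of control culture 16. In undernourished culture 20 they averaged 7.37 and 7.53, and in the other 10 cultures they stayed between 5.50 and 6.46. Markers of Schwann and glial cells (5 of 7 measured) averaged 8.11 and 8.13 in undernourished culture 20 and at most 6.97 elsewhere. Markers of smooth muscle cells and pericytes (6 of 6 measured) averaged between 6.73 and 7.57, above the median gene in every array. They were highest in control culture 16 (7.295 and 7.404) and undernourished culture 20 (7.558 and 7.568), and at most 7.08 elsewhere. Some results below are also given without these 2 cultures.

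The genes that carry the result are shown first by their promoters. RefSeq promoter sequences (GRCm38.p6) were held for 62 of the 71 genes, 68 promoters in all. Below are the 100 bases before the transcription start, 5′ to 3′ on the gene's strand, for the 3 genes with the strongest evidence of a rise in limited medium, for Mrpl52 as a risen gene with an ETS-type match, and for Mrpl1, which fell. Capitals mark an exact motif match on either strand.
Mrpl12 (chr11:120484537-120484636, plus strand): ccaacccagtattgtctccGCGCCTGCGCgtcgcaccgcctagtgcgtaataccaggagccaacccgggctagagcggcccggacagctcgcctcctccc
Mrpl37 (chr4:107066867-107066966, minus strand): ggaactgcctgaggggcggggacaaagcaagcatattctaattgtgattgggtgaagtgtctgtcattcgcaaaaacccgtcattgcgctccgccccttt
Mrps24 (chr11:5707702-5707801, minus strand): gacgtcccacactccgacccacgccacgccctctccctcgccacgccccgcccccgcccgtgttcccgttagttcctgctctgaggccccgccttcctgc
Mrpl52 (chr14:54426809-54426908, plus strand): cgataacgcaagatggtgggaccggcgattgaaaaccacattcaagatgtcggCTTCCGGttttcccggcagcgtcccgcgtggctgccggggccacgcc
Mrpl1 (chr5:96210015-96210114, plus strand): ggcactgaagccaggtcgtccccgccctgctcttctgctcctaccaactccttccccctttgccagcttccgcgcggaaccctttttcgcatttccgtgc

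The capitals in Mrpl12 are a match to the NRF1 motif, which begins 81 bases before the start. Those in Mrpl52 are a match to the ETS family motif, CCGGAAG, which begins 47 bases before the start. NRF1 and the ETS factor GABPA are transcription factors known for acting on nuclear genes of mitochondrial proteins. Mrpl37, Mrps24 and Mrpl1 held no match in these 100 bases to either motif, nor to the other 4 motifs searched. These were the YY1 motif, spelled ATGGCGG, the E-box, spelled CACGTG as bound by basic helix-loop-helix factors, the cAMP response element (CRE), spelled TGACGTCA, and the TATA box, spelled TATAAA. No motif's letters contain another's. A match is a description of letters and not evidence of binding.

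Over all 68 promoters of mitochondrial ribosomal protein genes, from 250 bases before to 50 after the start, 33.8% held the ETS motif, against 8.86% of the 32851 promoters in the table and 11.6% of the 21262 of protein-coding genes. The NRF1 motif was in 16.2%, against 4.60% and 6.38%. YY1 was in 17.6%, against 4.05% and 5.24%. None of the YY1 matches lay wholly within the 100 bases before the start, where 0.892% of all promoters held one. TATA was less frequent than in the table, at 7.35% against 13.6% and 12.6%. E-box was at 10.3% against 7.15% and 7.84%, and CRE at 2.94% against 1.79% and 2.23%. The 7 promoters with an E-box belong to 5 of the 62 genes, because 3 overlapping promoters of Mrpl2 hold the same site. Of the 7 genes that rose in limited medium and had a promoter in the table, 1 held NRF1, 2 held ETS and 2 held YY1. An E-box was in 1 of them, TATA in 1 and CRE in 0. The TATA match, in Mrps24, began 181 bases before the start.

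The first comparison asked how the genes differed between the media, over both maternal diets. In limited medium 10 of the 71 genes rose, 1 fell and 60 did not pass the test. A gene was called when its adjusted p in limma, corrected over all 22180 genes, was under 0.05. The risen genes encode Mrpl12, Mrpl37, Mrpl38, Mrpl4, Mrpl28, Mrpl52 and Mrps30 of the large subunit and Mrps23, Mrps24 and Mrps28 of the small one. Their rises lay between 0.26 and 0.42 on the log2 scale, at most 1.335-fold. Mrpl1 fell by 0.16. Over all genes tested, 3.56% were called higher and 3.28% lower, 6.84% in either direction, against 14.1% and 1.41% of the mitochondrial ribosomal protein genes. The median difference of the 71 genes was 0.11, that of all genes 0.01, and 55 of the 71 differences (77.5%) were above 0, against 51.8% of all genes.

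The genes are measured at above-average signal, which bears on that background. Of the 71 genes, 67 had a mean at or above the median of all gene means. Among the 11090 genes at or above it, 6.44% were called higher, 5.79% lower, and the median difference was 0.01. In bulk RNA, fewer cells of a type and less RNA per cell cannot be told apart.

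**Figure D1:**
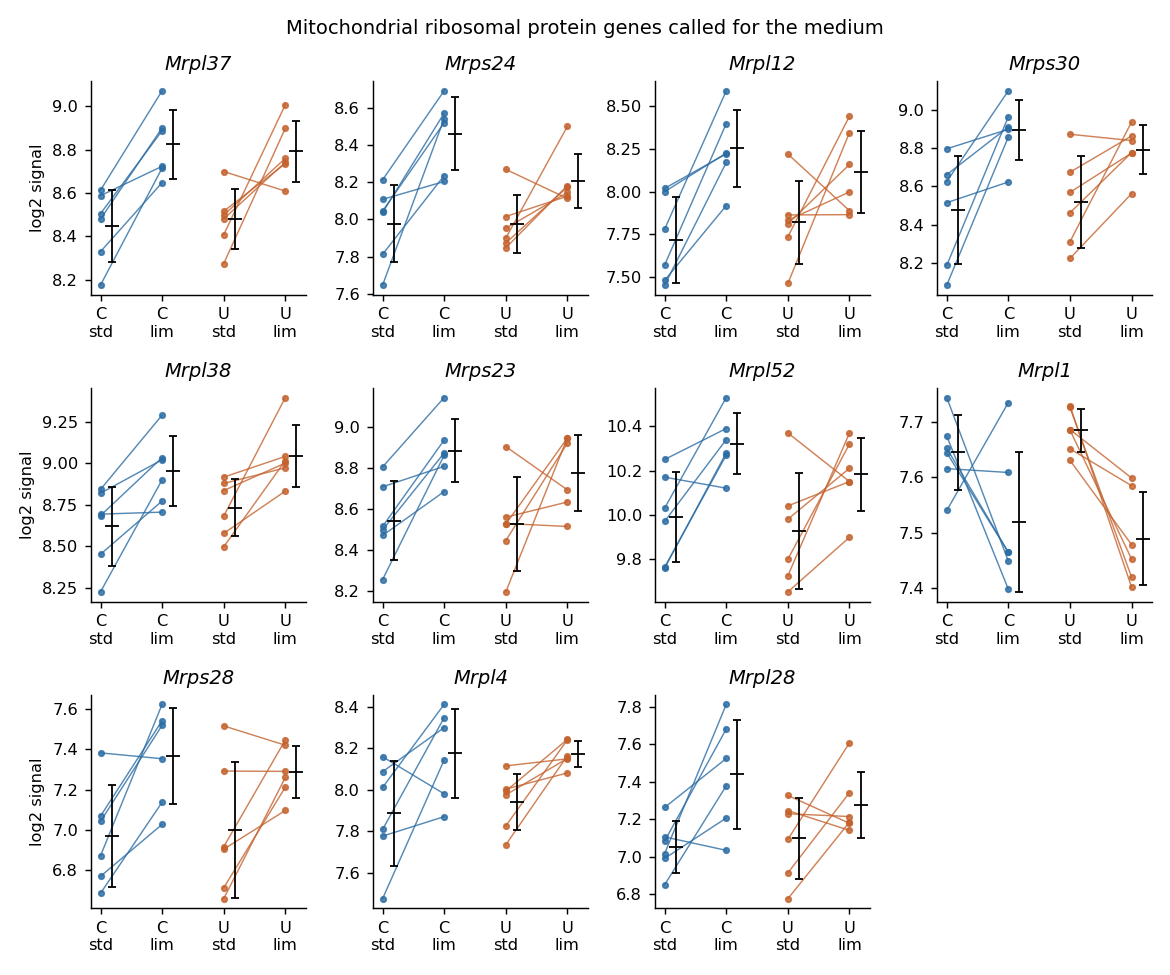
Log2 signal of the 11 mitochondrial ribosomal protein genes called for the medium over both maternal diets, in control (C) and undernourished (U) cultures in standard (std) and limited (lim) medium. Points are arrays, lines join arrays with the same culture number, and bars are the mean ± SD of 6 arrays; each panel has its own axis, which does not start at 0. The groups overlap in most panels, and most lines rise except in Mrpl1.

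Mrpl12 forms the flexible stalk of the large subunit, where elongation factors dock. Its log2 signal in control cultures ran from 7.45 over a median of 7.67 to 8.02 in standard medium, and from 7.92 over 8.22 to 8.59 in limited medium. In undernourished cultures it ran from 7.46 over 7.82 to 8.22 and from 7.86 over 8.08 to 8.44. The ranges of the media overlapped within each diet. Mrpl12 rose by 0.42 ± 0.09 (SE; adjusted p = 0.00837), with the limited array higher in 11 of 12 cultures. Its single exception was undernourished culture 9, at -0.33, and its largest steps were 0.88 in undernourished culture 12 and 0.83 in control culture 5.

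Mrpl37 is specific to mitochondria. In control cultures its log2 signal ran from 8.18 over a median of 8.49 to 8.61 in standard medium and from 8.65 over 8.80 to 9.07 in limited medium, with no overlap. In undernourished cultures it ran from 8.28 over 8.49 to 8.70 and from 8.61 over 8.75 to 9.01, and there the ranges overlapped by the standard array of culture 9. Mrpl37 rose by 0.34 ± 0.06 (adjusted p = 0.00200), the smallest adjusted p among the 71 genes, in 11 of 12 cultures. Mrps30 and Mrpl38 are also specific to mitochondria, and Mrpl38 lies in the central protuberance of the large subunit. Mrps30 rose by 0.34 ± 0.08 (adjusted p = 0.0128) in 11 of 12 cultures. Mrpl38 rose by 0.32 ± 0.08 (adjusted p = 0.0155) in 12 of 12 cultures, from group means of 8.62 and 8.73 in control and undernourished cultures in standard medium to 8.95 and 9.04 in limited medium.

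Mrps24 is the small subunit counterpart of bacterial S3, which lines the entry of the message into the ribosome. In control cultures its log2 signal ran from 7.65 over a median of 8.04 to 8.21 in standard medium and from 8.20 over 8.53 to 8.69 in limited medium, so that the ranges met only at their ends. In undernourished cultures it ran from 7.85 over 7.92 to 8.27 and from 8.11 over 8.16 to 8.50. Mrps24 rose by 0.36 ± 0.07 (adjusted p = 0.00415) in 11 of 12 cultures. The other small subunit genes that rose were Mrps28, by 0.34 ± 0.10 (adjusted p = 0.0327) in 9 of 12 cultures, and Mrps23, by 0.30 ± 0.08 (adjusted p = 0.0200) in 10 of 12.

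The remaining risen genes belong to the large subunit. Mrpl4, whose bacterial counterpart helps to form the wall of the exit tunnel, rose by 0.26 ± 0.07 (adjusted p = 0.0336) in 11 of 12 cultures. Mrpl52 rose by 0.29 ± 0.08 (adjusted p = 0.0251) in 10 of 12, and Mrpl28 by 0.29 ± 0.09 (adjusted p = 0.0413) in 8 of 12. In these 3 genes, as in Mrps23, Mrps28 and Mrps30, the ranges of the arrays overlapped between media.

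Mrpl1 went the other way. Its bacterial counterpart forms the mobile stalk that guides spent transfer RNA out of the ribosome. In undernourished cultures its log2 signal ran from 7.63 over a median of 7.69 to 7.73 in standard medium and from 7.40 over 7.46 to 7.60 in limited medium, with no overlap and a lower limited array in 6 of 6 cultures. In control cultures it ran from 7.54 over 7.65 to 7.75 and from 7.40 over 7.46 to 7.74. Mrpl1 fell by 0.16 ± 0.05 (adjusted p = 0.0320) over both diets, in 11 of 12 cultures, and control culture 24 was the exception at 0.20.

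The calls varied in how many single cultures they needed. Mrpl12, Mrpl37, Mrpl38, Mrps24 and Mrps30 were called under all 22 alternatives run. The count of 11 went to 6, 5 and 6 without control culture 5, 10 or 11, and to 6, 5 and 6 without undernourished culture 4, 12 or 20. With 1 culture left out at a time, Mrpl1 kept the call in only 4 of 12 fits. Mrpl28 and Mrpl4 kept it in 5, Mrpl52 and Mrps28 in 6 and Mrps23 in 7. Where a call was lost in these fits, adjusted p was up to 0.108. Mrpl1 also lost the call when each array was centred on its median (adjusted p = 0.0581). It was called in 11 of the 22 alternatives, with adjusted p up to 0.125. Without both control culture 16 and undernourished culture 20, 8 genes were called, 7 of them among the 11, and the median difference was 0.14.

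Several genes lay just outside the threshold. Mrpl23 was 0.29 higher in limited medium (adjusted p = 0.0811), Mrps34 0.23 (0.0837), Mrpl58, an enzyme that releases stalled peptides, 0.26 (0.0840) and Mrpl9 0.17 (0.0967). Mrpl54 had the next largest difference after Mrpl12, 0.36 ± 0.15, but did not pass the test (adjusted p = 0.159), and neither did Mrpl32 at 0.31 ± 0.12 (adjusted p = 0.120). At the other end stood Mrpl36 at -0.15, Mrps18c at -0.13, Mrps17 at -0.10 and Mrpl49 at -0.07, with adjusted p between 0.281 and 0.791.

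By role, the large subunit had 7 genes higher and 1 lower of 45, with a median difference of 0.12. The small subunit had 3 higher of 25, with a median of 0.07. Genes of proteins specific to mitochondria had medians of 0.14 in the large subunit (4 of 17 rose) and 0.13 in the small one (1 of 10 rose). Genes with a bacterial counterpart had medians of 0.11 in the large subunit (3 of 28 rose, 1 fell) and 0.04 in the small one (2 of 15 rose). The differences between these classes were not tested. Mrps36 differed by -0.02.

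The second comparison took the media within each maternal diet. In control cultures 1 of the 71 genes passed the test, where 0.343% of all genes did (0.167% higher). Mrps24 rose by 0.48 ± 0.10 (adjusted p = 0.0385) in 6 of 6 cultures. This call was lost without control culture 5, 10, 11, 16 or 24 and without undernourished culture 8 or 12, which share the estimate of spread, with adjusted p between 0.0564 and 0.173. Mrpl12 was 0.54 ± 0.13 higher (adjusted p = 0.0711) and Mrpl37 0.38 ± 0.09 (adjusted p = 0.0647), and neither passed. Lower by sign but not called were Mrpl1 at -0.13, Mrps36 at -0.11 and Mrps17 at -0.09.

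The median difference in control cultures was 0.17, against 0.01 over all genes, and 60 of 71 differences were above 0. Leaving out single cultures moved this median between 0.13 and 0.25. At an unadjusted p under 0.05, 29 of the genes (40.8%) were higher and 0 lower, where 13.1% of all genes and 18.7% of those at or above the median level passed in either direction. The limited array was higher in 6 of 6 control cultures for 18 genes and lower in 6 of 6 for 0, shares that were 5.94% and 4.58% over all genes. Only Mrpl37 had ranges that did not overlap between the media, as did 1.19% of all genes.

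In undernourished cultures 0 of the 71 genes passed the limma test, where 1.46% of all genes did (0.726% higher, 0.735% lower). At an unadjusted p under 0.05, 10 were higher and 3 lower. That share, 18.3%, lay between the 13.4% of all genes and the 20.5% of genes at or above the median level that passed. The 3 with the smallest p among those nominally higher were Mrpl37 at 0.31 ± 0.09 (adjusted p = 0.0877), Mrpl38 at 0.31 ± 0.12 (0.195) and Mrps18b at 0.37 ± 0.16 (0.272). The 3 among those nominally lower were Mrpl1 at -0.20 ± 0.06 (0.138), Mrpl36 at -0.27 ± 0.11 (0.268) and Mrps18c at -0.22 ± 0.10 (0.340). The median difference was 0.03, against 0.00 over all genes, and 41 of 71 differences were above 0. The limited array was higher in 6 of 6 cultures for 2 genes and lower for 4, against 4.51% and 5.11% of all genes. Mrpl1 alone had ranges that did not overlap, as did 1.09% of all genes.

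**Figure D2:**
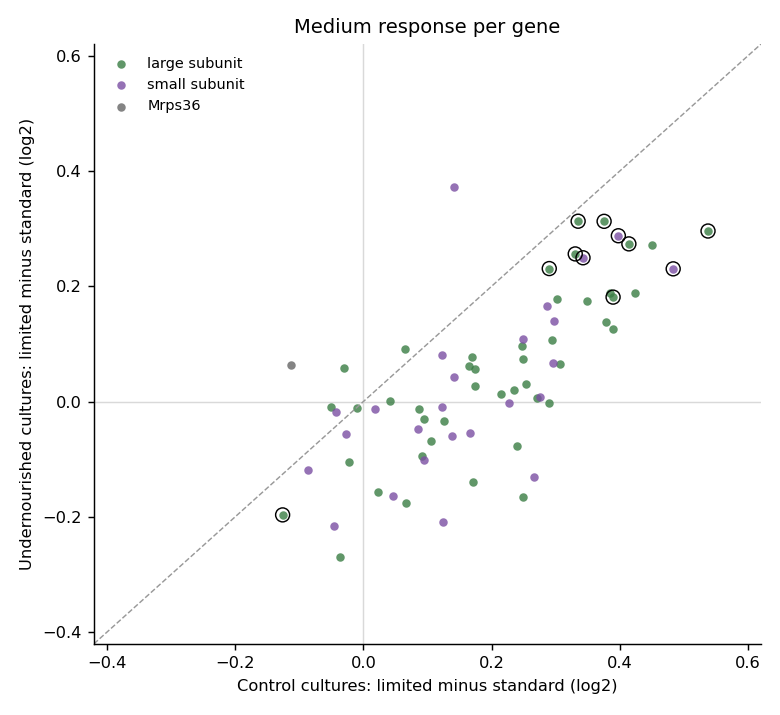
Difference between limited and standard medium (log2) of each of the 71 mitochondrial ribosomal protein genes in control cultures (horizontal axis) and undernourished cultures (vertical axis); rings mark the 11 genes called over both diets and the dashed line marks equal differences. Below the dashed line lie 65 of the 71 genes, and 39 have a difference above 0 on both axes.

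Side by side, 39 genes had a difference above 0 in both diets, 21 only in control cultures, 2 only in undernourished cultures and 9 in neither. All 11 genes called over both diets had a higher signed difference in control than in undernourished cultures. Mrpl12 differed by 0.54 and 0.30, Mrps24 by 0.48 and 0.23, Mrps30 by 0.41 and 0.27, and Mrpl28 by 0.39 and 0.18. Among the risen genes the gap was smallest for Mrpl38, at 0.33 and 0.31, and Mrpl4, at 0.29 and 0.23. Whether the diets differed was tested gene by gene as the difference of the medium effects.

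That test called 0 of the 71 genes and 0% of all genes in limma; at an unadjusted p under 0.05, 2 of the 71 (and 2.90% of all genes) passed. These were Mrps16, the counterpart of bacterial S16, whose medium effect was lower in undernourished cultures (a difference of -0.40 ± 0.14, adjusted p = 0.9998), and Mrpl18, at -0.41 ± 0.19 (adjusted p = 0.9998). Mrpl19 followed at -0.31 and did not pass. The 3 genes with the smallest p in the other direction were Mrps36 at 0.18, Mrps18b at 0.23 and Mrpl24 at 0.09, none of which passed. Members moved together from array to array. Correlation of a gene with the mean of the other members ran from -0.23 (Mrpl1) to 0.92 (Mrps21), and was positive for all but Mrpl1 and Mrps36. Counts of signs, here and in the other comparisons, are therefore not 71 separate observations. The median of the 71 differences was -0.16, against -0.01 over all genes, and 65 of 71 were below 0. Leaving out single cultures moved that median between -0.21 and -0.10, and the other alternatives between -0.23 and -0.13.

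The cultures themselves were unequal. The median difference between limited and standard medium over the 71 genes was 0.42, 0.36 and 0.26 in control cultures 11, 10 and 5, with 67, 68 and 65 of the 71 genes higher in limited medium. It was 0.05, 0.03 and -0.03 in control cultures 24, 15 and 16. Thus 3 control cultures carried most of the control median, and the other 3 lay near 0. In undernourished cultures it was 0.24 in culture 12, 0.13 in culture 4, 0.08 in culture 20, -0.03 in culture 1, -0.05 in culture 8 and -0.22 in culture 9, where only 9 of the 71 genes were higher. The means of these medians were 0.18 ± 0.19 (SD, n = 6) for control and 0.02 ± 0.16 for undernourished cultures, so the 2 sets overlapped widely. The median of all genes stayed between -0.02 and 0.03 in every culture.

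**Figure D3:**
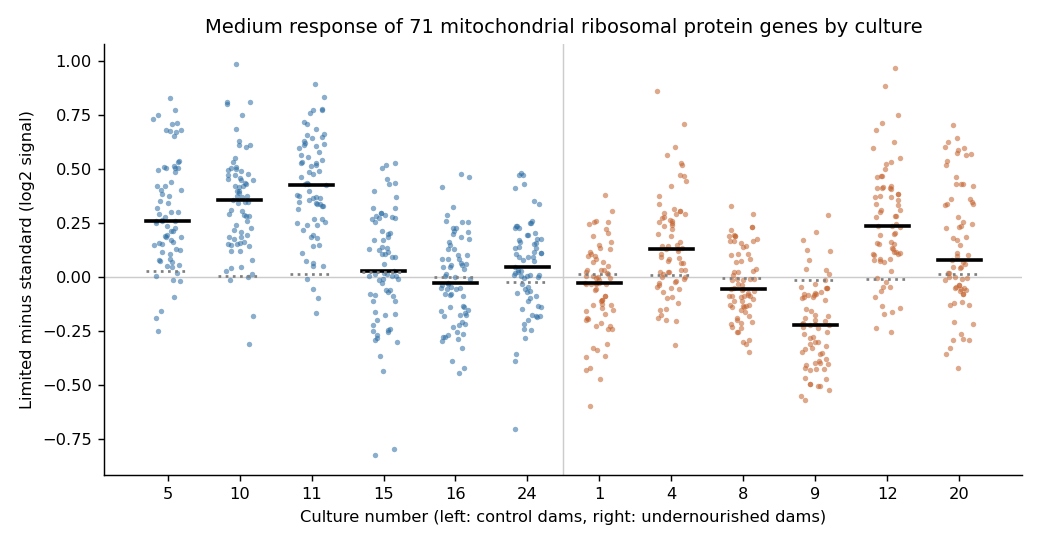
Difference between limited and standard medium (log2) of the 71 mitochondrial ribosomal protein genes in each culture, control on the left and undernourished on the right. Points are genes, solid bars the median of the 71 genes and dotted lines the median of all genes tested; control cultures 5, 10 and 11 and undernourished culture 12 stand highest and undernourished culture 9 lowest.

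Myotube markers were also higher in limited medium in 10 of the 12 cultures, the exceptions being control culture 5 (11.7 to 11.6) and undernourished culture 9 (11.7 to 11.6). Their means were 11.5 and 11.7 in control standard and limited arrays and 11.4 and 11.6 in undernourished ones, and 2 of the 15 were called higher. The median medium difference of the 15 markers was smaller, at 0.07. Of the 8 markers of satellite cells and myoblasts, 1 was called lower. From standard to limited medium, culture 5 had a high median difference of mitochondrial ribosomal protein genes but lower myotube markers. In culture 9 both were lower in limited medium. In culture 9 the fibroblast markers also went from 6.22 to 5.50. They went from 6.03 to 5.66 in undernourished culture 4, where the median difference of the 71 genes was 0.13. In control culture 16 they went from 7.27 to 7.86, with a median difference of -0.03. The part of these shifts in the results was not tested.

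The mean signal of the 71 genes per array was 7.84 ± 0.18 (SD, n = 6) in control standard, 8.03 ± 0.17 in control limited, 7.90 ± 0.14 in undernourished standard and 7.95 ± 0.07 in undernourished limited arrays. The arrays of all 4 groups overlapped. Those of the undernourished limited group spanned the narrowest range, from 7.85 to 8.05, and those of the control limited group the widest, from 7.74 to 8.22.

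The third comparison asked how the genes differed between offspring of undernourished and control dams in the same medium. In standard medium limma called 0 of the 71 genes and 0% of all genes. No member passed an unadjusted p of 0.05, which 3.14% of all genes did. Signals in undernourished cultures were nominally higher for Mrps15 by 0.18, Mrpl51 by 0.21 and Mrpl39 by 0.15, and lower for Mrps18b by -0.22, Mrps36 by -0.16 and Mrps10 by -0.13. The median was 0.06, against 0.01 over all genes, and 58 of 71 differences were above 0. It was 0.16 without control culture 16 and undernourished culture 20 together, and 0.12 without control culture 16 alone. It was 0.02 without control culture 5 or undernourished culture 9, 0.03 without control culture 15 and 0.04 without control culture 11.

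In limited medium limma again called 0 of the 71 genes and 0% of all genes. At an unadjusted p under 0.05, 3 members were lower and none higher, where 5.44% of all genes passed. Mrps25 was at -0.24 ± 0.09, Mrps24 at -0.25 ± 0.10 and Mrps16 at -0.23 ± 0.10, each with an adjusted p of 0.894. The smallest p among higher genes were those of Mrps9 at 0.11, Mrpl38 at 0.09 and Mrpl24 at 0.06. The median was -0.09, against 0.00 over all genes, and 59 of 71 differences were below 0. It was -0.05 without control culture 10 and -0.15 without control culture 15. These values rest on the same limited arrays as the medium effects, so they are not separate evidence.

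With the media averaged in each culture, limma called 0 of the 71 genes and 0% of all genes, and 0 members passed an unadjusted p of 0.05, which 3.57% of all genes did. The median was -0.02, and 28 of 71 differences were above 0. Mrps9 was nearest at 0.13 (adjusted p = 0.9991), followed by Mrps24 at -0.13, Mrps25 at -0.13 and Mrps10 at -0.15. Mrps15 and Mrpl51 differed by 0.09 and 0.10. No member had ranges that did not overlap between the diets in either medium, while 0.153% of all genes did in standard and 0.207% in limited medium.

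Other genes of mitochondrial translation were also looked at over both diets. The share called was 8.00% for ribosome assembly, 7.69% for transcription and RNA handling (with DNA replication genes) and 6.25% for the aminoacyl-tRNA synthetases. It was 18.2% for the translation factors and 25% for the insertion and quality control genes. The share was 6.84% over all genes and 12.2% over those whose mean reached the median gene. These lists, of 8 to 25 genes, held 1 or 2 calls each, too few for their shares to be read against either background. Among proteins of the mitochondrial ribosome that carry other symbols, none of the 3 measured was called: Dap3 differed by 0.13, Gadd45gip1 by 0.20 and Ptcd3 by -0.10. Of 11 translation factors, Tufm, the elongation factor that delivers transfer RNA, rose by 0.25 ± 0.08 (adjusted p = 0.0406). Mtif2, the initiation factor that places the first transfer RNA, fell by 0.25 ± 0.05 (adjusted p = 0.00274). In undernourished cultures Mtif2 was also called on its own, at -0.28 ± 0.07 (adjusted p = 0.0384). The median of the factors was -0.06.

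Of 25 genes of mitochondrial ribosome assembly and rRNA modification, 2 rose and none fell. They were Eral1, a chaperone of the small subunit rRNA, by 0.31 ± 0.09 (adjusted p = 0.0453), and Mterf3, which acts in mitochondrial transcription and ribosome assembly, by 0.28 ± 0.08 (adjusted p = 0.0413). The 13 genes listed under mitochondrial transcription and RNA handling included the DNA replication genes Twnk, Polg, Polg2 and Ssbp1. Only Twnk, the helicase of the mitochondrial genome, was called, and it rose by 0.30 ± 0.07 (adjusted p = 0.00861). Among 8 genes for inserting and checking translation products, Oxa1l, which inserts them into the inner membrane, rose by 0.19 ± 0.06 (adjusted p = 0.0420) and the inner membrane protease Yme1l1 fell by 0.23 ± 0.05 (adjusted p = 0.00422). Among 16 mitochondrial aminoacyl-tRNA synthetases only Rars2, the arginyl enzyme, was called. It fell by 0.39 ± 0.08 (adjusted p = 0.00231), and by 0.45 ± 0.11 (adjusted p = 0.0300) in undernourished cultures alone.

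Larger families gave a scale for the median. The 78 nuclear-encoded respiratory complex subunits had a median of 0.17 over both diets, with 13 called higher, 0 lower and 70 above 0. The 58 cytosolic ribosomal proteins had a median of 0.12, close to that of the mitochondrial ones, with 45 above 0, and 0 were called in limma. At an unadjusted p under 0.05 in limma, 16 of them were higher and 0 lower (27.6%). By that measure 23 of the 71 mitochondrial ribosomal protein genes were higher and 1 lower (33.8%). The share in either direction was 20.3% of all genes and 30.9% of those at or above the median level. In control and undernourished cultures the medians were 0.24 and 0.10 for respiratory subunits and 0.14 and 0.06 for cytosolic ribosomal proteins, against 0.17 and 0.03 for mitochondrial ribosomal proteins. The difference between families was not tested.

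**Figure D4:**
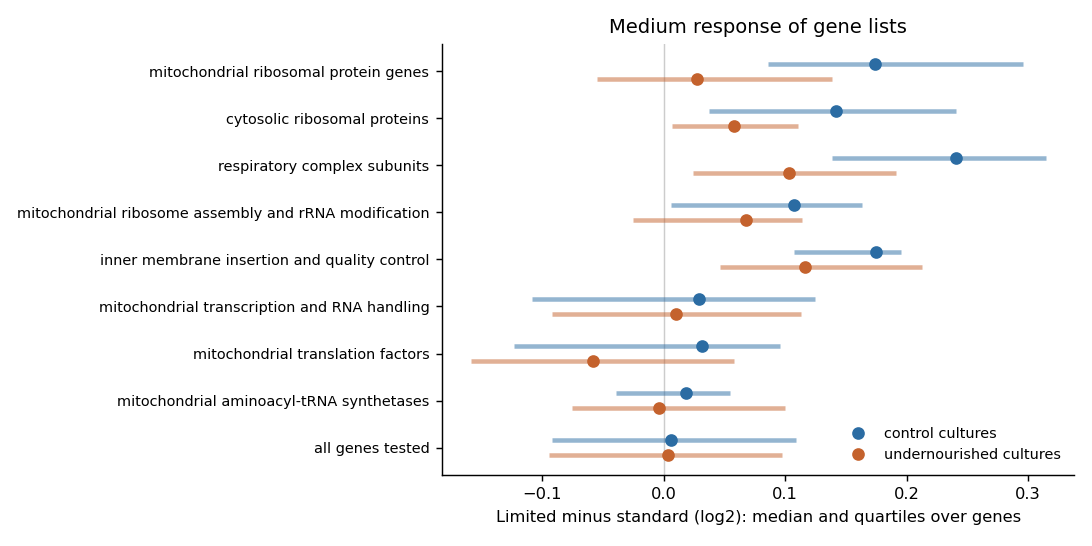
Difference between limited and standard medium (log2) of gene lists in control (blue) and undernourished (orange) cultures; points are medians over genes and bars run from the lower to the upper quartile. The median is 0.17 in control and 0.03 in undernourished cultures for the 71 mitochondrial ribosomal protein genes, beside 0.24 and 0.10 for respiratory complex subunits.

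The genes are also short. Their median span in the annotation was 7749 bases, against 21976.5 for the 11044 genes of at least median level that have one, and among those genes short ones tended to be higher in limited medium. The 67 members of that level are given by span class. Under 5 kb, the 21 members had a median difference of 0.14 and 4 rose, where 1678 other genes had a median of 0.05 and 7.21% rose. From 5 to 10 kb, the 24 members had a median of 0.11 and 3 rose, where 1372 other genes had 0.07 and 10.8% rose. From 10 to 20 kb, the 13 members had a median of 0.05 and 2 rose, where other genes had 0.04 and 8.59% rose. The 4 members from 20 to 50 kb had a median of 0.14 and none rose, where 2901 other genes had a median close to 0 and 5.62% rose. From 50 kb on, the 5 members had a median of 0.10 and 1 rose, where other genes had -0.05 and 3.04% rose. Over both diets, members had higher medians than other genes of like span in 4 of the 5 classes and about the same from 10 to 20 kb. In control cultures the medians of members and other genes, from the shortest class to the longest, were 0.29 and 0.07, 0.17 and 0.08, 0.13 and 0.05, 0.27 and 0.01, and 0.12 and -0.04. In undernourished cultures they were 0.04 and 0.05, 0.06 and 0.06, -0.01 and 0.02, 0.04 and -0.01, and 0.08 and -0.06. The part of gene span in the result was not tested.

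Among themselves, the genes differed in how much they varied between cultures. The SD over the 12 culture means was largest for Mrpl54, at 0.34, with its lowest mean, 8.02, in control culture 15 and its highest, 9.25, in undernourished culture 4. It was 0.25 for Mrpl32 and 0.23 for each of Mrpl20, Mrps18b and Mrpl49. The median SD was 0.155 for the 71 genes and 0.158 for all genes at or above the median level. Outside the family, the genes whose 24 array values followed the mean of the standardised members most closely were Lamtor2 (Pearson r = 0.92), Ciao1 (0.91), Stoml2 (0.91), Spryd4 (0.90) and Cox14 (0.90). These correlations describe arrays that share RNA preparations and normalization.

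A further cluster was at hand for 9 members: Mrpl10, Mrpl12, Mrpl36, Mrpl47, Mrps16, Mrps17, Mrps18b, Mrps18c and Mrps5. In 8 of them both clusters gave the medium difference the same sign. Mrpl12 differed by 0.42 and 0.32, and Mrps18b by 0.26 and 0.31. Mrpl47 was the exception, at -0.06 and 0.18. The brightest clusters belonged to Mrpl52, Mrps15, Mrpl39, Mrpl24 and Mrpl50 and the dimmest to Mrps36, Mrps14, Mrpl27, Mrpl36 and Mrpl48, with means over all arrays between 4.95 and 10.1. Probes differ in brightness, so this is not an order of transcript abundance.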

How the data were processed

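The authors deposited log2 signals per transcript cluster, made with RMA in Affymetrix Expression Console per the submitters' processing notes; versions, array build and detection calls: not given in the sources used here. Their log base, also unstated, was read from the values. Of 41345 clusters, 23521 carried 1 gene symbol, 1814 several and 16010 none in the platform annotation; 23328 matched RefSeq (GRCm38.p6). The brightest one-symbol cluster of each gene was kept (1082 genes had more than 1), with no filter on level. The values were used as deposited.

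All 24 arrays in 4 groups of 6 entered 1 limma fit (limma 3.58.1, R 4.3.3; lmFit, eBayes), with contrasts of group means and no block. Maternal diet over both media was fitted on 12 culture means. P-values were two-sided and adjusted by Benjamini-Hochberg over 22180 genes. Precision is limited by how many arrays each group has. The code was tested on simulated data. Alternatives were culture block, quantile normalization, median centring, a level filter, cluster means, array weights, trend and robust variance, the title number as covariate, a looser threshold and left-out cultures.

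The members and gene lists were chosen with earlier results of these data known. Named were all called members, otherwise the 3 with the smallest p per direction, the 5 brightest and dimmest, the 5 most variable between cultures, the 5 lowest and highest differences, members with several clusters, called genes and ribosomal proteins of the other lists, and the 5 most alike genes. Genes just outside the threshold were named after their values were seen. Sequences are from RefSeq.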

Additional observations from a re-analysis of the deposited data

Results flagged for a closer look

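In 2 of the 50 sets of 6 values looked at, 1 value stood apart from the other 5, and chance alone flags about 1 set in 20. The sets were arrays of a group or, for each maternal diet, the median medium differences of its cultures. Both flagged sets were arrays. Mrpl38 in undernourished limited medium was 9.396 in culture 12, where the other 5 arrays lay between 8.832 and 9.041. Mrps24 in the same group was 8.499 in culture 4, where the others lay between 8.112 and 8.181.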

How the results depend on the processing

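Over both diets, leaving out 1 culture gave between 5 and 14 called genes and the other alternatives between 8 and 16, against 11. Maternal diet and the difference of medium effects had 0 called members under each alternative. With adjusted p under 0.1, 3 genes were called in control cultures and 1 in undernourished ones, against 1 and 0. In control cultures 3 were called when only genes at or above the median level were tested and 4 with array weights, and between 0 and 2 when 1 culture was left out; the cause was not tested. With the culture number as a block, Mrpl1 lost its call (adjusted p = 0.0723), and 16 genes were called over both diets, all higher and 10 of them among the 11, and 4 in control cultures. The genes gained were Mrpl23, Mrpl32, Mrpl54, Mrpl58, Mrps34 and Mrps7 over both diets and Mrpl12, Mrpl37 and Mrps30 in control cultures. Over all genes that fit called 6.06% and 1.44% higher. The number was not taken as a pairing, because the deviations of its arrays correlated above 0.1 in 10 of 12 cultures but not in undernourished 9 (-0.05) and 12 (0.02); each array correlated best with its own number in 10 of 12, a hint from the data. Median differences of the 71 genes kept their sign under every alternative in every comparison except maternal diet over both media (-0.06 to 0.03). They ranged from 0.09 to 0.14 over both diets, from 0.13 to 0.25 in control cultures, from 0.00 to 0.07 in undernourished ones, from 0.02 to 0.16 for maternal diet in standard medium, from -0.15 to -0.05 in limited medium, and from -0.23 to -0.10 for the difference of medium effects.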
